A study of Mus musculus with 6 samples.

Results

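The 10 genes described here are those of the cadherin switch and of the mesenchymal and adhesion program that goes with it: Cdh1, Cdh2, Vim, Snai2, Zeb1, Zeb2, Mcam, Alcam, L1cam and Ncam1. All probe sets of each symbol were taken, whatever their values, but the genes themselves were chosen with earlier results of these data known. The array annotation gave them 32 of 34945 probe sets with 1 gene symbol, for 10 of 18193 genes. Of the 32, 25 passed a filter on low signal and were tested, with at least 1 for each gene, and the other 7 belong to Zeb1, Alcam, L1cam and Ncam1. A probe set is the group of short probes from which 1 signal per transcript is read. They were measured in B16-F1, a cell line from a melanoma of a C57BL/6J mouse. Lentivirus had stably introduced a short hairpin RNA (shRNA) directed at GFP (the control), at macroH2A1 or at macroH2A2. MacroH2A proteins are histone H2A variants with a large macro domain. Each line was hybridised on 2 arrays from independent biological replicates, and these 6 arrays limit how precise any value can be. Each target has 1 line in the labels, so the hairpin and the line that carries it cannot be told apart, and the sources used here do not say whether a line is 1 clone.

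Classical cadherins are adhesion receptors that bind the same cadherin on a neighbouring cell and link to actin through catenins. E-cadherin (Cdh1) is typical of epithelia and of the contact between melanocytes and keratinocytes, and N-cadherin (Cdh2) of mesenchymal and neural cells. The exchange of the first for the second is called the cadherin switch and is a known step of melanoma progression. Snai2, Zeb1 and Zeb2 are zinc finger repressors that bind E-box sites and can silence Cdh1. In the melanocyte lineage Snai2 and Zeb2 are part of the normal differentiated state, whereas Zeb1 is tied to dedifferentiated melanoma. Mcam, Alcam, L1cam and Ncam1 are adhesion receptors of the immunoglobulin superfamily, and Mcam was first described as a melanoma antigen.

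The labels were checked first. The targeted Macroh2a1 had signals of 1212.7 and 1262.4 with control shRNA and 444.2 and 319.1 with macroH2A1 shRNA, a 3.19-fold lower level (limma adjusted p 0.123, and 0.00120 with the replicate number as a block). Macroh2a2 read at most 11.9 on any array, so these arrays did not check the label of the macroH2A2 shRNA line. All 9 measured melanocyte markers were above the array median on every array, with a summed signal of 35932 to 46844. Of the markers of other cell types, 6 of 8 fibroblast, 5 of 7 keratinocyte, 5 of 7 leukocyte and 8 of 8 endothelial genes were below the array median on all 6 arrays. The median signal was 19.5 to 24.6 on replicate 1 arrays and 15.1 to 16.2 on replicate 2 arrays. Differences between both replicates were shared in part by the lines (correlation 0.372 to 0.576), so differences within replicate set 1 and set 2 are given beside the results.

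**Figure D1:**
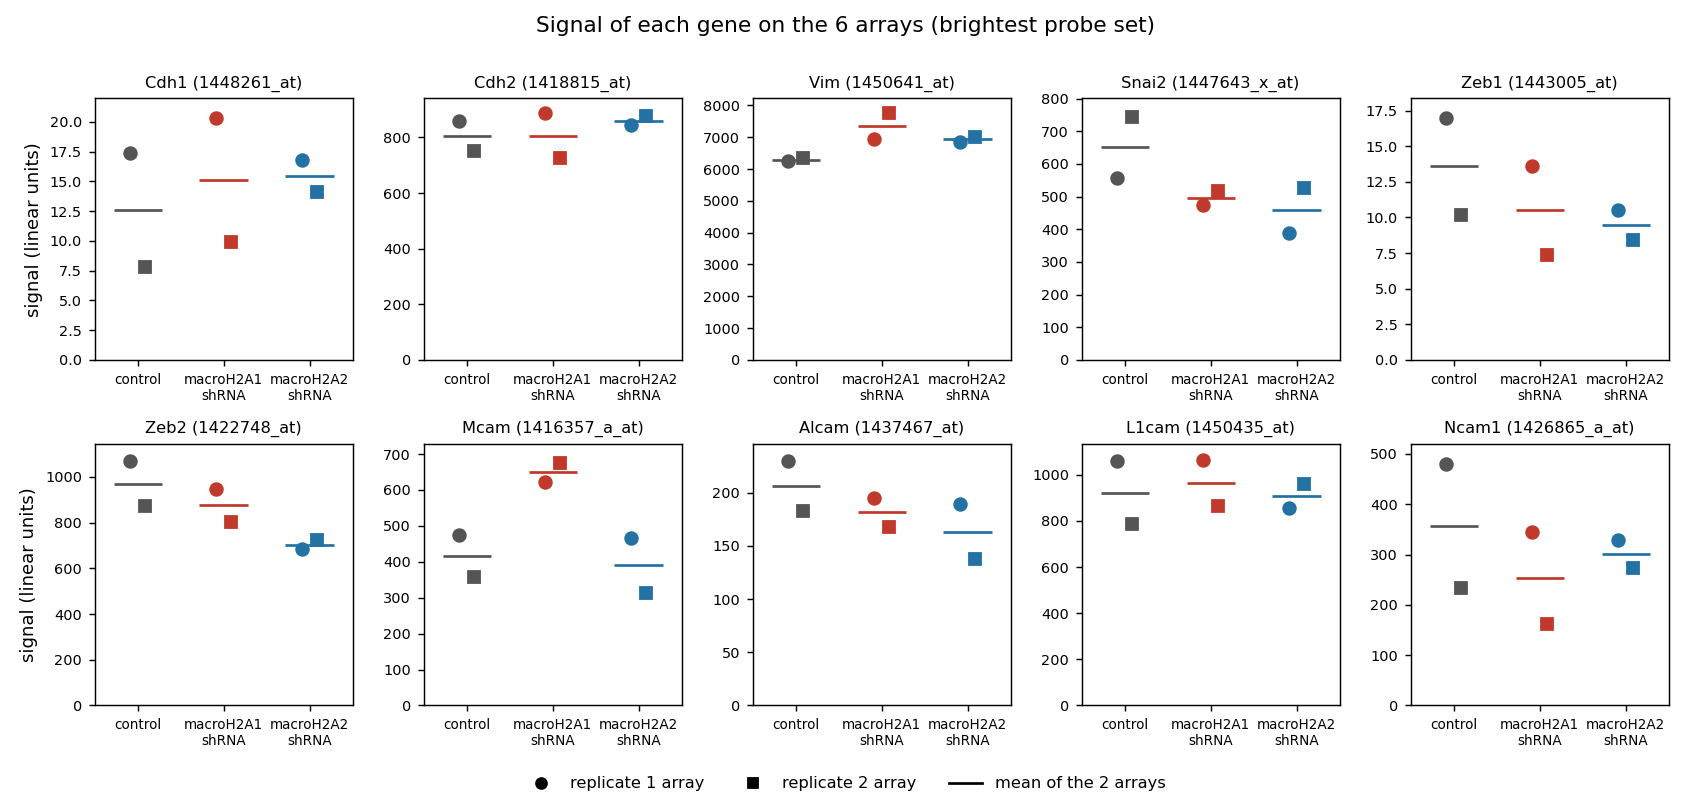
Signal in linear units of the brightest probe set of each of the 10 genes on the 6 arrays, with 1 panel per gene, circles for replicate 1, squares for replicate 2 and a line at the mean of the 2 arrays of a line of cells; each vertical axis starts at 0 and has its own range. The macroH2A1 shRNA arrays of Mcam (623.1 and 675.3) lie above the other 4 arrays, and Cdh1 and Zeb1 stay at or below 20.3 on every array.

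Cdh1 was at the lower end of the measured range in all 3 lines. Its 1 probe set (1448261_at) read 17.4 and 7.8 on the control arrays, 20.3 and 9.9 with macroH2A1 shRNA and 16.8 and 14.1 with macroH2A2 shRNA. Each of these values was below the median signal of its own array, and the 3 lines overlapped. The difference from control on the log2(signal + 16) scale, used for all differences here, was 0.12 with macroH2A1 shRNA (95% interval -0.56 to 0.80) and 0.16 with macroH2A2 shRNA (-0.52 to 0.83). At this signal the intervals are wide and cross 0, so neither a change in Cdh1 nor its absence is shown.

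Cdh2 was measured by 2 probe sets, and both were above the median signal on every array. The brighter one (1418815_at) read 860.5 and 751.5 on the control arrays, 887.1 and 725.3 with macroH2A1 shRNA and 843.3 and 877.6 with macroH2A2 shRNA, with complete overlap of the lines. The second (1449244_at) read 292.5 and 303.6, then 256.5 and 301.1, then 398.3 and 418.9 in the same order. On it both macroH2A2 shRNA arrays stood above the other 4, which the brighter probe set did not show.

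For that second Cdh2 probe set the macroH2A2 shRNA line was 0.43 above control (SE 0.15; 0.43 and 0.44 within sets 1 and 2) and 0.53 above the macroH2A1 shRNA line (SE 0.15; 0.60 and 0.46). The limma p adjusted over all 27025 tested probe sets was 1 for both differences, and 0.365 and 0.494 with the block. The brighter probe set gave 0.10 (95% interval -0.25 to 0.44) and 0.10 (-0.25 to 0.44). The 2 probe sets thus had the same sign but differed in size, and only the second had an interval against control that did not cross 0 (0.08 to 0.79). With macroH2A1 shRNA the differences from control were 0.00 (-0.35 to 0.34) on the brighter probe set and -0.10 (-0.45 to 0.26) on the second.

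Other cadherins were mostly dim. Of 11 further cadherin genes on the array 4 passed the filter on low signal (a mean over the 6 arrays of at least 10.4), and 6 were below the array median on all 6 arrays. Cdh19, a cadherin of the Schwann cell and melanocyte lineage, was the bright one, at 978.7 and 1011.4 on the control arrays, 853.7 and 805.3 with macroH2A1 shRNA and 973.4 and 875.5 with macroH2A2 shRNA. Both knockdown lines read below both control arrays, by -0.26 (SE 0.13) and -0.11 (SE 0.13). Of the 4 tested cadherins, 3 were lower in each line (array 55.6% and 55.7%), and 0 passed the test (limma adjusted p, with and without the block; 0 in each line at an unadjusted p under 0.05).

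Among the repressors, Snai2 read lower in the macroH2A1 shRNA line on both of its probe sets. The brighter one (1447643_x_at) read 557.2 and 744.6 on the control arrays, 475.1 and 518.3 with macroH2A1 shRNA and 389.6 and 526.9 with macroH2A2 shRNA. The other (1418673_at) read 135.2 and 212.7, then 121.7 and 103.9, then 168.1 and 149.2. Both macroH2A1 shRNA arrays were below both control arrays on each probe set, whereas the macroH2A2 shRNA arrays were below control on the brighter one and lay between the control arrays on the other.

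The Snai2 differences from control were -0.37 (SE 0.20) and -0.53 (SE 0.23) with macroH2A1 shRNA and -0.49 (SE 0.20) and -0.09 (SE 0.23) with macroH2A2 shRNA. The control arrays themselves differed by 0.41 and 0.60 on the 2 probe sets, replicate 2 being higher. Within sets 1 and 2 the macroH2A1 shRNA difference was -0.22 and -0.51 on the brighter probe set and -0.13 and -0.93 on the other. None of these differences passed the threshold (limma adjusted p 1 without the block, 0.265 to 0.938 with it). On the dimmer probe set the macroH2A2 shRNA difference was -0.39 without control shRNA replicate 1 and 0.21 without control shRNA replicate 2, so 1 control array decides its sign. For the mean of both knockdown lines the brighter probe set was -0.43 from control (SE 0.17, blocked limma adjusted p 0.242). It was -0.47 in the blocked fit without macroH2A2 shRNA replicate 2. Without the block it ranged from -0.63 to -0.23 when any 1 array was left out.

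Zeb1 was at the floor of the array. Its brightest probe set (1443005_at) read 17.0 and 10.2 on the control arrays, 13.6 and 7.4 with macroH2A1 shRNA and 10.5 and 8.4 with macroH2A2 shRNA. The other 3 probe sets read 0.3 to 6.7 and did not pass the filter. All 4 were below the array median on all 6 arrays, and the difference of the tested one from control was -0.16 (95% interval -0.78 to 0.46) and -0.21 (-0.83 to 0.41). Both intervals are wide and cross 0, so neither a difference in Zeb1 nor its absence is shown.

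Zeb2, in contrast, was above the array median on every array with all 5 of its probe sets. The brightest (1422748_at) read 1069.9 and 871.5 on the control arrays, 945.2 and 804.2 with macroH2A1 shRNA and 682.9 and 723.7 with macroH2A2 shRNA. Both macroH2A2 shRNA arrays were the lowest of the 6. The difference of that line from control was -0.45 (SE 0.15, a 1.37-fold lower level), with -0.64 and -0.26 within sets 1 and 2. The limma adjusted p was 1 (0.300 with the block). With the block and without macroH2A2 shRNA replicate 2 the difference was -0.62. Without the block it ranged from -0.59 to -0.30 when any 1 array was left out.

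The other Zeb2 probe sets gave the same sign for this line in 3 of 4 cases but with overlapping arrays. Over all 5, the macroH2A2 shRNA difference ranged from -0.45 to 0.08 with a median of -0.29, and the macroH2A1 shRNA difference from -0.42 to -0.07 with a median of -0.14. The 3 dimmest probe sets differed more between the arrays of 1 line than between lines. For 1454200_at, for example, the replicate 1 arrays read 113.5, 91.2 and 83.5 and the replicate 2 arrays 52.9, 30.8 and 49.2 in the control, macroH2A1 shRNA and macroH2A2 shRNA lines.

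Further regulators of the transition were split in the same way into measured and dim genes. Snai1, Twist1, Twist2, Prrx1, Foxc2, Gsc and Id4 did not pass the filter, and Twist1, a basic helix-loop-helix factor, read at most 3.7 on any array. Of the 13 tested, 7 were higher and 6 lower with macroH2A1 shRNA, and 5 higher and 8 lower with macroH2A2 shRNA, with medians of 0.01 and -0.08 against -0.03 over all tested probe sets in each comparison. None passed the test (limma adjusted p, with and without the block), and at an unadjusted p under 0.05 there were 2 and 3 of 13 (array 4.4% and 3.98%).

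The regulators with the smallest p included Hmga2, an architectural chromatin protein, which read 268.6 and 219.0 on the control arrays, 177.3 and 277.8 with macroH2A1 shRNA and 129.3 and 94.3 with macroH2A2 shRNA (-1.03 from control in the last line, SE 0.25). Tcf3, which encodes E-box binding E2A proteins, read 194.7 and 185.6, then 209.5 and 201.9, then 131.1 and 124.1 (-0.52, SE 0.16). For both genes the macroH2A2 shRNA arrays were the lowest. Sox4 read 1805.3 and 1857.0 in the control line and 2177.8 to 2670.7 in the other lines, above control on all 4 arrays (0.37 and 0.39, SE 0.13 each).

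Vim, the intermediate filament protein of mesenchymal cells and of melanoma, had a high signal on all 3 of its probe sets, from 4638 to 7758. The probe set 1450641_at read 6255.0 and 6332.7 on the control arrays, 6953.5 and 7751.7 with macroH2A1 shRNA and 6834.3 and 7022.1 with macroH2A2 shRNA. On it all 4 knockdown arrays were above the control arrays. The other 2 probe sets overlapped between all lines.

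The Vim differences from control were 0.11 to 0.22 with macroH2A1 shRNA and 0.04 to 0.14 with macroH2A2 shRNA over the 3 probe sets (limma adjusted p 1 for each). These signs depend on the scaling. After quantile normalization the macroH2A1 shRNA differences of 1450641_at, 1438118_x_at and 1456292_a_at were 0.00, -0.10 and -0.03.

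Mcam showed the largest difference of the 25 tested probe sets in both comparisons of the macroH2A1 shRNA line. Its 1 probe set (1416357_a_at) read 474.1 and 358.6 on the control arrays, 623.1 and 675.3 with macroH2A1 shRNA and 467.2 and 312.9 with macroH2A2 shRNA. Both macroH2A1 shRNA arrays stood above the other 4, which overlapped among themselves. The macroH2A1 shRNA line was 0.63 above control (SE 0.22, a 1.55-fold higher level), with 0.38 and 0.88 within sets 1 and 2.

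The macroH2A2 shRNA line was -0.10 from control (95% interval -0.61 to 0.40) and -0.74 from the macroH2A1 shRNA line (SE 0.22), with -0.40 and -1.07 within sets 1 and 2. The unadjusted limma p was 0.020 for macroH2A1 shRNA against control and 0.00977 for the difference between both knockdown lines. After adjustment these became 0.998 and 1, or 0.222 and 0.340 with the block, so Mcam did not pass the threshold of 0.05. Leaving out a macroH2A2 shRNA array cannot move the Mcam difference of macroH2A1 shRNA from control, which was 0.63 in those blocked fits too. The arrays that enter this difference did move it in the blocked fits. It was 0.72 or 0.55 when replicate 1 or 2 of the control line was dropped. It was 0.93 or 0.34 when replicate 1 or 2 of the macroH2A1 shRNA line was dropped. Between both knockdown lines the blocked Mcam difference was -0.95 without macroH2A2 shRNA replicate 1 and -0.53 without macroH2A2 shRNA replicate 2. Mcam is also expressed by endothelial cells, whose 8 measured markers were all below the median on every array. Their summed signal was 33.5 to 56.4 with control shRNA, 56.6 to 57.8 with macroH2A1 shRNA and 44.2 to 54.9 with macroH2A2 shRNA. Their part in the Mcam values was not tested.

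The promoter windows of Mcam and Alcam are shown because they are the 2 of 5 genes with a window (Vim, Zeb2, Mcam, Alcam and L1cam) that hold the E-box core CACCTG, the letters bound by Snail and Zeb repressors. The sequences are those of RefSeq on GRCm38.p6, from 250 bases before to 50 after the start site, read 5′ to 3′ on the strand of the gene, with the E-box in capitals.
Mcam, chr9:44134408-44134707, plus strand: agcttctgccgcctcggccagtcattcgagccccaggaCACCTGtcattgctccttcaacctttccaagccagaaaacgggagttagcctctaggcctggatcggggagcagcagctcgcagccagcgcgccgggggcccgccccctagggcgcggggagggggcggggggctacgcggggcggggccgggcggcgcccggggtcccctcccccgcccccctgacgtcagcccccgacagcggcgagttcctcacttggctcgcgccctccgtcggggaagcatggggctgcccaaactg
Alcam, chr16:52453032-52453331, minus strand: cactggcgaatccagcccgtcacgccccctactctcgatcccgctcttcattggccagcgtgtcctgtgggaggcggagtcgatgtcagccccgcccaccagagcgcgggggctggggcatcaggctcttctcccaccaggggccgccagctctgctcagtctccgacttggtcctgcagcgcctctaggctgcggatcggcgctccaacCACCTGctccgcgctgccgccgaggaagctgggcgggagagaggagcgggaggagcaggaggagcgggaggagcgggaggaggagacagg
The core was searched on both strands, as CACCTG and CAGGTG. It starts 212 bases before the start site in Mcam and 40 bases before it in Alcam. By window, 2 of 9 member windows hold it, against 20.2% of all 32851 windows of this length. By gene, it is 2 of 5 members against 22.6% of all genes with a window. The match is a description of these letters, and no binding was measured here.

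Alcam, the receptor that binds CD6 and also itself, was read by 5 probe sets, 4 of them tested and the fifth (1443086_at) at 4.4 to 16.3. Its brightest (1437467_at) read 229.4 and 182.6 on the control arrays, 194.8 and 168.1 with macroH2A1 shRNA and 189.2 and 137.2 with macroH2A2 shRNA, and the lines overlapped. On 1437466_at both macroH2A2 shRNA arrays (102.2 and 64.1) were below the control arrays (136.1 and 103.7) and the macroH2A1 shRNA arrays (124.6 and 124.0). The macroH2A2 shRNA difference from control ranged over the 4 probe sets from -0.47 to 0.08, with 3 of 4 below 0, and that of macroH2A1 shRNA from -0.16 to 0.06.

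L1cam, a neural adhesion receptor known from invasive tumour edges, was bright on 1 probe set (1450435_at) and not above 12.5 on the other. The bright one read 1059.9 and 786.3 on the control arrays, 1065.5 and 865.0 with macroH2A1 shRNA and 855.7 and 962.1 with macroH2A2 shRNA. The lines overlapped, and the differences from control were 0.07 (95% interval -0.35 to 0.49) and -0.01 (-0.43 to 0.41).

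Ncam1, the neural cell adhesion molecule, had 7 probe sets, of which 5 were tested and gave both signs, and the other 2 read 0.3 to 4.9. The brightest (1426865_a_at) read 479.1 and 233.1 on the control arrays, 345.5 and 162.9 with macroH2A1 shRNA and 328.3 and 273.6 with macroH2A2 shRNA. In the control line its arrays thus differed by 0.99, more than any difference between lines (-0.47 and -0.15 from control, SE 0.39 each). For the mean of both lines the blocked limma adjusted p was 0.623, and the blocked difference without macroH2A2 shRNA replicate 2 was -0.50. Without the block that mean difference, -0.31, was 0.19 without control shRNA replicate 1 and -0.81 without control shRNA replicate 2, so 1 control array turns its sign. The macroH2A1 shRNA difference was 0.03 and -0.96 in the same order, and 0.04 without macroH2A1 shRNA replicate 2. The dim probe set 1450437_a_at read 22.5 and 15.2 in the control line and 25.4 to 35.9 in the other 4 arrays, the opposite order (0.42 and 0.33, SE 0.25 each). The second brightest (1426864_a_at) read 254.6 and 154.6, then 198.9 and 117.8, then 164.0 and 188.4, and the dim 1439556_at and 1425126_at stayed at or below 42.8 with overlap against control. Over the 5 tested probe sets the macroH2A1 shRNA difference ranged from -0.47 to 0.42 and that of macroH2A2 shRNA from -0.16 to 0.33.

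**Figure D2:**
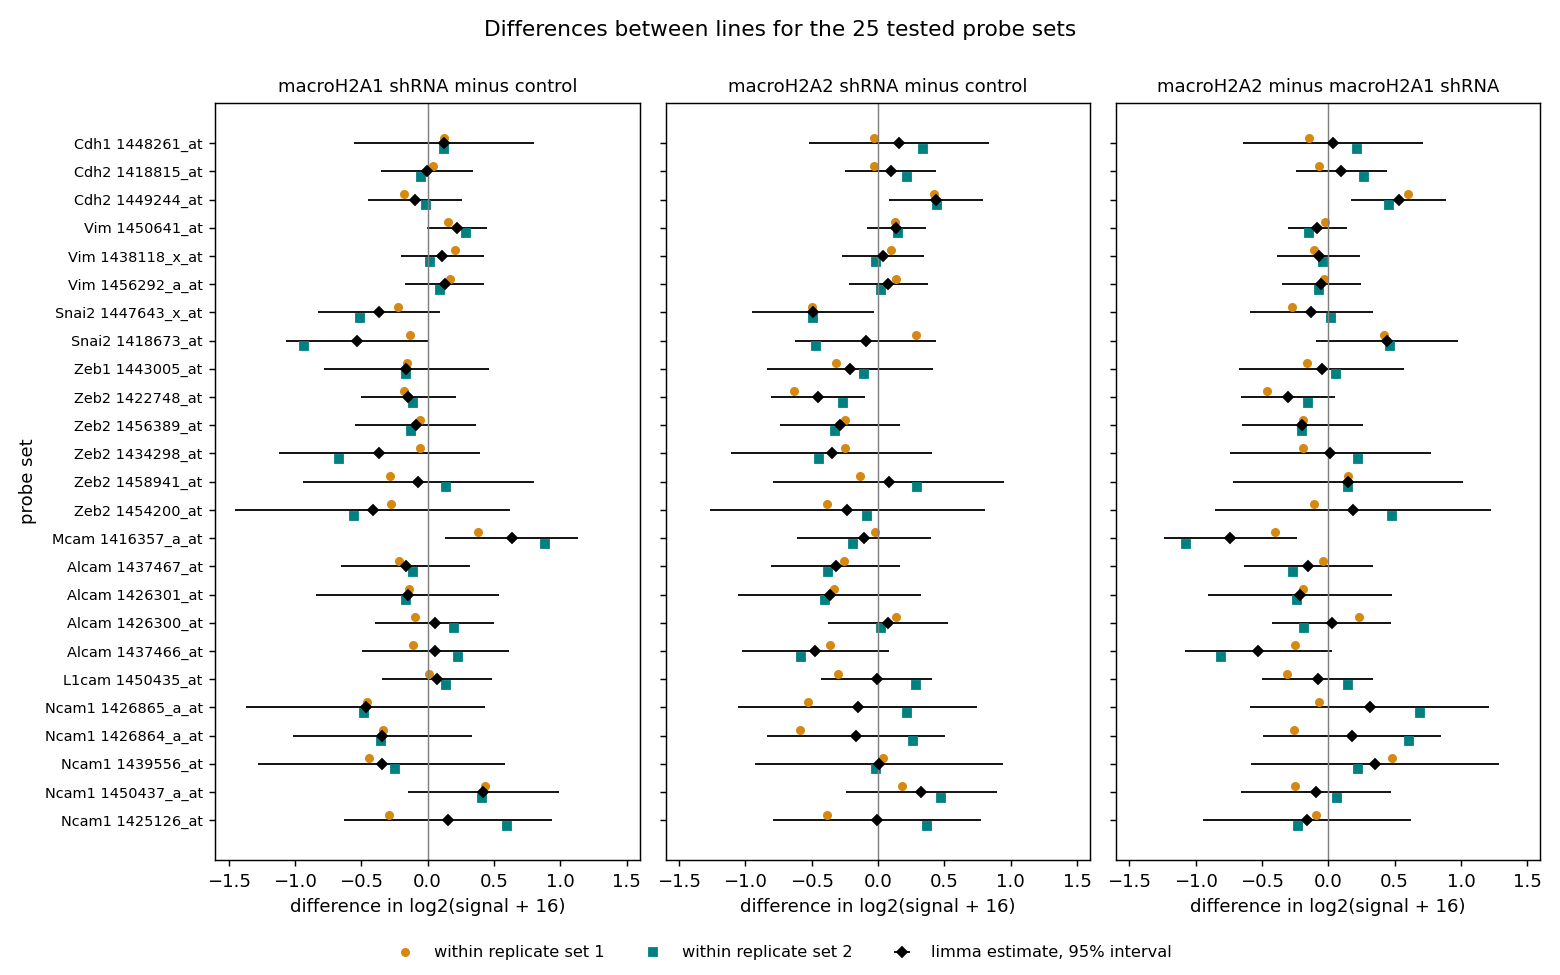
Differences in log2(signal + 16) between lines for the 25 tested probe sets, with the limma estimate and its 95% interval as a diamond and bar, and the difference within replicate set 1 (circle) and set 2 (square). Mcam is the one farthest from 0 in the left panel (0.63) and in the right panel (-0.74), and most intervals cross 0.

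Counted together, 0 of the 25 tested probe sets passed an adjusted p under 0.05 in limma for macroH2A1 shRNA against control, where the whole array gave 0%, and 0 with the replicate block, where the array gave 0.192%. For macroH2A2 shRNA both counts were 0 as well, against 0% and 0.144% of the array. For the mean of both lines they were 0 against 0% and 0.311%, and for macroH2A2 against macroH2A1 shRNA 0 against 0% and 0.0037%. The 2 comparisons with control share the control arrays.

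At an unadjusted limma p under 0.05 there was 1 probe set (Mcam) for macroH2A1 shRNA (array 4.4%) and there were 3 for macroH2A2 shRNA (array 3.98%), those of Cdh2 (1449244_at), Snai2 (1447643_x_at) and Zeb2 (1422748_at). For the mean of both lines it was 1, Snai2 (array 4.5%), and between the knockdown lines 2, Cdh2 and Mcam (array 2.73%). With the block these counts were 5, 5, 4 and 4, against 8.84%, 8.98%, 9.74% and 6.33% of the array. Probe sets of 1 gene share its transcripts and are not independent.

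The sign was above 0 for 10 of 25 in each comparison with control (array 44.4% and 44.3%), for 12 in the mean of both lines (array 42.9%, with 57.1% below 0) and for 11 between the knockdown lines (array 48.9%, with 51.1% below 0). The arrays did not overlap for 5 of 25 probe sets with macroH2A1 shRNA (3 higher and 2 lower, array 13% and 14.9%, together 27.9%). With macroH2A2 shRNA it was 6 (3 higher and 3 lower, array 13% and 16.2%, together 29.2%), and between the knockdown lines also 6 (2 higher and 4 lower, array 13.3% and 14.6%, together 28%). For the mean of both lines it was 3 (2 higher and 1 lower, array 5.83% and 6.89%, together 12.7%). The members' shares of 20%, 24%, 24% and 12% lay near or below those of the array. The median difference of the 25 was -0.09 in each comparison with control, against -0.03 for all tested probe sets.

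**Figure D3:**
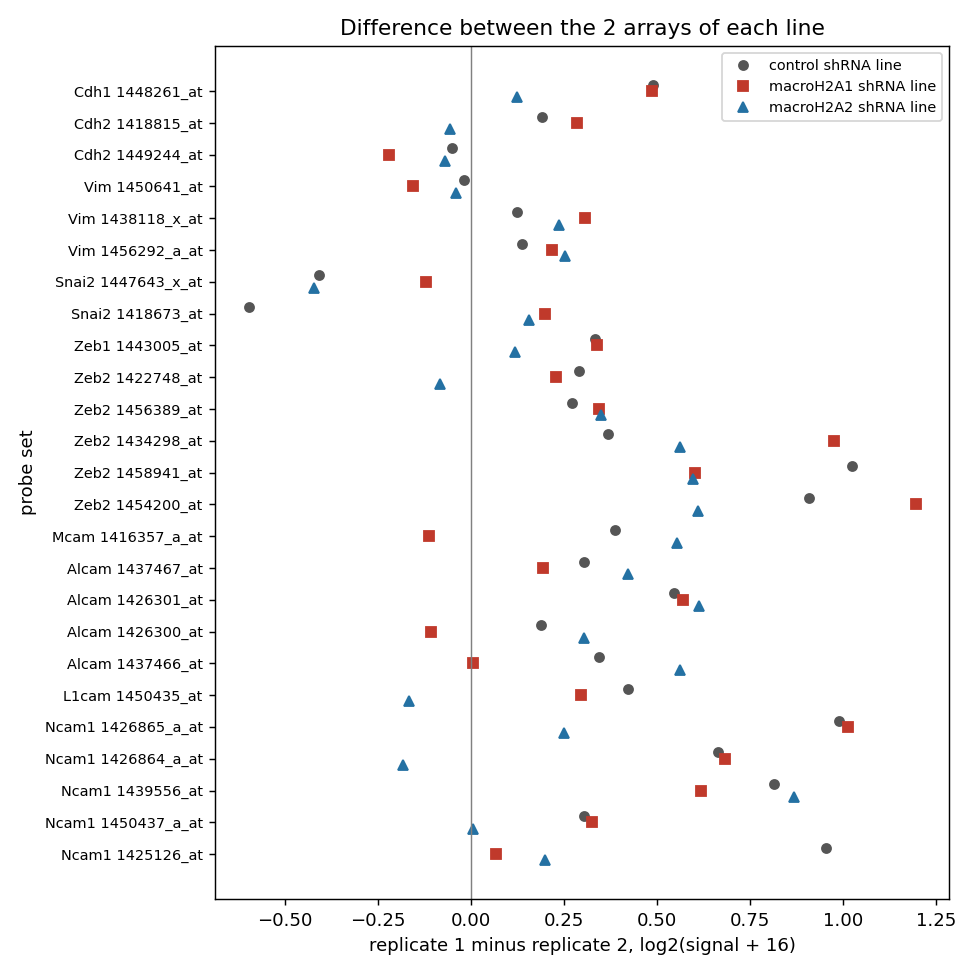
Replicate 1 minus replicate 2 in log2(signal + 16) for the 25 tested probe sets, with 1 symbol per line of cells. Most points lie right of 0, and 3 probe sets of Zeb2, 3 of Ncam1 and 1426301_at of Alcam lie at 0.5 or more in at least 2 lines.

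These probe sets differed between the replicate sets more often in 1 direction than the array did. In all 3 lines the replicate 1 array was higher for 15 of 25 (60%, array 29.1%) and lower for 3 (array 15.1%). The median difference was 0.33, 0.30 and 0.24 in the control, macroH2A1 shRNA and macroH2A2 shRNA lines, against 0.11, 0.05 and 0.03 over all tested probe sets. The 15 were 4 of Zeb2, 4 of Ncam1, 3 of Alcam, 2 of Vim and 1 each of Cdh1 and Zeb1. Those lower on replicate 1 in all 3 lines were 1449244_at of Cdh2, 1450641_at of Vim and 1447643_x_at of Snai2.

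The signal ratio of the 3′ to the 5′ control probe sets, a measure of RNA integrity, was 0.809 to 0.841 for Gapdh and 1.24 to 1.28 for beta-actin over the 6 arrays. The array medians, given above, were higher on all 3 replicate 1 arrays than on any replicate 2 array. Their part in these values was not tested.

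Of genes that act with cadherins, 9 of 13 catenins, nectins and other partners on the array were tested. With macroH2A1 shRNA 4 were higher and 5 lower, with macroH2A2 shRNA 3 higher and 6 lower, and 0 passed the test (limma adjusted p, with and without the block; 0 in each line at an unadjusted p under 0.05). Ctnnb1, which encodes beta-catenin, read 5515 to 5851 on the control arrays, 6037 and 6587 with macroH2A1 shRNA and 5798 and 5738 with macroH2A2 shRNA. Nectin2, an adhesion receptor of the nectin family, read 172.5 and 164.4, then 186.3 and 219.5, then 128.1 and 126.1. The macroH2A1 shRNA arrays were thus the highest and the macroH2A2 shRNA arrays the lowest (macroH2A2 minus macroH2A1 shRNA -0.61, SE 0.17).

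Most of the epithelial genes were dim. Of 25 junction, keratin and epithelial regulator genes 19 were below the array median on all 6 arrays and 6 were tested, with 0 past the threshold in either line (limma adjusted p, with and without the block; 1 and 0 of 6 at an unadjusted p under 0.05, array 4.4% and 3.98%). Epcam, an epithelial adhesion protein, read at most 36.6 and Krt8, a simple epithelial keratin, at most 21.2. Pkp2, a plakophilin of the desmosome, read 126.9 and 75.3 in the control line and 37.7 to 66.0 on the other 4 arrays, all below control (-0.85 and -0.65, SE 0.29 each). Crb3, a polarity protein of epithelia, had the opposite order, at 12.1 and 18.9 in the control line and 19.8 to 28.9 on the other 4 arrays (0.44 and 0.20, SE 0.24 each).

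Mesenchymal and cytoskeletal genes other than Vim were lower in 13 of 17 tested cases in each knockdown line, with medians of -0.21 and -0.23. The share of all tested probe sets below 0 was 55.6% and 55.7%. None passed the test (limma adjusted p, with and without the block), 2 and 1 had an unadjusted p under 0.05 (array 4.4% and 3.98%), and the arrays did not overlap for 4 and 6 of the 17 (array 27.9% and 29.2%). Axl, a receptor tyrosine kinase of dedifferentiated melanoma, read 62.7 and 25.6 on the control arrays, 25.3 and 20.8 with macroH2A1 shRNA and 18.4 and 16.2 with macroH2A2 shRNA.

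Nes, the intermediate filament protein nestin, read 154.4 and 132.7 in the control line and 95.3 to 117.4 on the other arrays. Both Axl and Nes were below control on all 4 knockdown arrays. Beside these values, the fibroblast markers summed to 125.1 and 187.8 in the control line and to 114.9 to 152.8 in the other lines, and the 2 tested ones among them went opposite ways. Pdgfra read 82.9 and 52.4 in the control line and 24.4 to 32.5 elsewhere, and Col1a2 read 52.8 and 46.1 in the control line and 62.1 to 79.8 elsewhere. Their part in the mesenchymal values was not tested.

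Other adhesion genes of the immunoglobulin family, 12 of 19 tested, were higher in 5 and lower in 7 cases with macroH2A1 shRNA and higher in 4 and lower in 8 with macroH2A2 shRNA. None passed the test (limma adjusted p, with and without the block), and 3 and 0 of 12 had an unadjusted p under 0.05 (array 4.4% and 3.98%). Cadm1, a cell adhesion molecule, read 1603.5 and 1239.3 in the control line and 1989.1 and 1903.3 with macroH2A1 shRNA, with both arrays above control as for Mcam (0.46, SE 0.16). F11r, a tight junction receptor, had the opposite order, with 260.3 and 209.0 against 124.1 and 151.5 (-0.70, SE 0.20), and 190.9 and 233.9 with macroH2A2 shRNA.

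The genes most like Cdh1 over the 6 arrays, by Pearson correlation of log2(signal + 16), were Aars2 (0.995), Dhx57 (0.990) and Chrna4 (0.983). Those most like the brighter Cdh2 probe set were Riok1 (0.994), Zbtb14 (0.989) and Mtss1 (0.988). These were the 3 closest to each gene among 12087 others, of which 148 and 97 had a correlation above 0.9. The 6 arrays share the replicate sets, and the values describe only how alike the signal patterns were over these arrays.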

How the data were processed

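RNA of 3 B16-F1 shRNA lines, 2 replicates each, was measured on 6 one-colour arrays with 45101 probe sets. Per the submitters' processing notes, the authors used MAS5 (the sources used here name no version), and each deposited value is a linear signal intensity. All arrays had a 2% trimmed mean of 150.0 as deposited, so a change in total signal is removed. Names came from the platform annotation. All 32 member probe sets matched a current gene record by Entrez identifier.

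After removal of 64 control probe sets, the values were analysed as log2(signal + 16), which understates changes of dim probe sets. Probe sets with a mean signal at or above the 40th percentile (10.4) were tested, 27025 in all, in 1 limma fit (limma 3.58.1, R 4.3.3, lmFit and eBayes with trend) with 3 group means, 3 residual and 4.90 prior degrees of freedom. Adjusted p values are two-sided, by the Benjamini-Hochberg method over all tested probe sets, with a threshold of 0.05. The fit was also run on simulated data in which the arrays varied independently, so that run does not cover the replicate differences shared between lines here. The changes added there were larger than any member difference in the main fit.

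The replicate 1 minus replicate 2 differences correlated between lines (0.576, 0.372 and 0.415), so same-numbered arrays were treated as pairs on the evidence of the data, and a second fit that blocks on this number (2 residual degrees of freedom) is given beside the results. Settings tried were the block, a pseudocount of 1, no filter, a 60th percentile filter, quantile normalization, median centring and leaving out each array, each with and without the block.

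The members and the 12 further gene lists were chosen with earlier results of these data known. All probe sets of the members are described. A gene is otherwise represented by its brightest probe set, and up to 4 genes with the smallest p were named per list, with 3 genes of the most similar pattern for Cdh1 and Cdh2.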

Additional observations from a re-analysis of the deposited data

Results flagged for a closer look

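In 2 of the tested probe sets the difference from control had opposite signs in the macroH2A1 and the macroH2A2 shRNA line within each replicate set. The order of the signs was the same in both sets. For Mcam (1416357_a_at) it was above 0 in the macroH2A1 shRNA line and below 0 in the macroH2A2 shRNA line, and macroH2A2 minus macroH2A1 shRNA was -0.74. For Cdh2 (1449244_at) the order was reversed, and the same difference was 0.53. Tested as a contrast of the 2 lines, both had a limma adjusted p of 1, and 0.340 and 0.494 with the replicate block, so neither passed the threshold. In each probe set the side below 0 was small. For Mcam with macroH2A2 shRNA it was -0.02 and -0.19 within sets 1 and 2, and 0.09 without control shRNA replicate 1. For Cdh2 with macroH2A1 shRNA it was -0.18 and -0.01, and 0.01 without macroH2A1 shRNA replicate 1. The opposite signs thus depend on single arrays.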

How the results depend on the processing

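No member probe set passed the threshold with the replicate block, which changed no call, nor under another pseudocount, filter or scaling, with or without it. Without the block the same held when any 1 array was left out. With the block and 1 array left out, members passed the threshold only in fits without a macroH2A2 shRNA array. Such a fit leaves 1 array in that line, so only the differences are given. Without macroH2A2 shRNA replicate 1 the probe set was Mcam (0.63 for macroH2A1 shRNA against control and -0.95 between the lines). Without macroH2A2 shRNA replicate 2 they were Mcam (0.63 for macroH2A1 shRNA against control) and Zeb2 1422748_at (-0.62 for macroH2A2 shRNA against control). For the mean of both lines they were Snai2 1447643_x_at (-0.47) and Ncam1 1426865_a_at (-0.50). In these fits more probe sets of the whole array passed as well than in the full blocked fit, so the members do not stand out by passing. These fits have 1 residual degree of freedom.

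Over 23 alternatives the 100 single differences gave 2260 values, of which 191 had the other sign, and in 0 of these did both values exceed their SE. The Mcam difference from control with macroH2A1 shRNA ranged from 0.34 to 0.93. Values of Cdh1 and Zeb1 are limited by their signal near the lower end of the array.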

Other observations

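Genes of TGF-beta signalling, a pathway known to induce Snail and Zeb factors, were tested for 21 of 22 genes on the array. With macroH2A1 shRNA 12 were higher and 9 lower, and with macroH2A2 shRNA 10 were higher and 11 lower, with medians of 0.04 and -0.03, and 0 passed the test (limma adjusted p, with and without the block; 3 and 2 at an unadjusted p under 0.05, against 4.4% and 3.98% of the array). The arrays did not overlap for 9 and 12 of them, against 27.9% and 29.2% of the array. Tgfb1, a ligand, read 45.8 and 50.6 in the control line and 26.1 to 29.4 on the other 4 arrays. Tgfbr2, the type II receptor, had the opposite order, with 438.2 and 378.6 in the control line and 458.0 to 641.9 elsewhere. Ski, a SMAD corepressor, read 225.7 and 234.3, then 300.4 and 337.0 with macroH2A1 shRNA and 247.7 and 255.8 with macroH2A2 shRNA. Ltbp3, a latent TGF-beta binding protein, read 1113.8 and 745.2, then 1044.1 and 639.3, then 606.8 and 529.9, lowest on the macroH2A2 shRNA arrays.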
